A study of Mus musculus with 8 samples.

Results

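The forkhead (FOX) motifs were the rows of the deposited motif matrices whose name starts with FOX, in capitals or not. They numbered 25 of 579 motifs (4.32%), and the same 25 were present in all 8 samples. Chromatin accessibility was measured in single nuclei (snATAC-seq) of wild-type (WT) mouse embryonic forebrain. The samples came from the cortex (CTX) and from the medial, lateral and caudal ganglionic eminences (MGE, LGE and CGE, jointly GE). Each of the 4 regions had 2 samples, called replicate 1 and replicate 2 after their titles. All were taken at E12.5 except CTX replicate 2, taken at E14.5 (embryonic days), so the spread within CTX cannot be told apart from a difference of age. No label says whether the 2 samples of a region came from separate embryos, and p-values then measure only the spread between these samples, which may be technical.

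Forkhead proteins are transcription factors named after a Drosophila gene, and they share a winged-helix DNA-binding domain. Most members recognise closely similar short sequences, so a motif named after a member does not tell which protein, if any, is bound. In the forebrain, FOXP proteins are known for their part in neuronal differentiation, while FOXO proteins act downstream of insulin signalling, FOXM1 in the cell cycle and FOXJ1 in cilium formation.

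The labelled regions could be checked against accessibility over region genes, given as CPM, the count over a gene per 1000000 counts assigned to genes. Nkx2-1, the MGE regulator, had 534 and 361 CPM in the MGE samples against 17.2 to 38.7 CPM in the other 6, and Emx1, a cortical gene, had 121 and 173 CPM in CTX against 35.3 to 57.6 CPM in GE. The CTX samples differed in their glutamatergic genes, with Neurod2 at 158 CPM in replicate 1 and 16.9 CPM in replicate 2, a value inside the GE range of 11.1 to 21.2 CPM. Wnt8b ran the other way, with 36.6 CPM in CTX replicate 1 and 248 CPM in CTX replicate 2, against 5.07 to 72.8 CPM in GE. Glutamatergic and GABAergic markers separated the CTX samples from those of GE. The summed CPM of 9 glutamatergic markers was 907 to 1195 in CTX and 452 to 588 in GE, that of 10 GABAergic markers 563 to 783 and 1375 to 3135. Other sums overlapped, with 1307 to 1625 and 1573 to 2229 for 10 progenitor markers and 268 to 328 and 224 to 290 for 10 endothelial markers. The part of these markers in the CTX against GE results was not tested. The 8 libraries held 3465 to 6845 nuclei (39253 in all), 77387940 to 138873845 peak counts and median motif counts of 350406 to 615578 per nucleus. Between libraries, 881 barcodes occurred more than once, with 15 to 56 shared in any pair.

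The sequence letters behind the counts are shown first, because they decide how the 25 rows relate to each other. For 10 of the 25 motifs, holding 87.4% of all FOX counts, the deposited count of every nucleus was exactly the sum of its counts in those peaks that held 1 or 2 short words on either strand. A peak with several matches counted once. The words of FOXI1, FOXD2, FOXO4, FOXO6 and FOXP3 were identical, and so were their rows in every nucleus of all 8 samples. These 5 rows carried 51.1% of FOX counts. The capitals below mark the words, and each set is shown because it defines a group of rows.
FOXI1, FOXD2, FOXO4, FOXO6 and FOXP3: GTAAACA
FOXL1, either word: GTAAACA or ATAAACA
FOXO3: GTAAACAA
Foxj2, either word: GTAAACAA or ATAAACAA
FOXD1: GTAAACAT

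The words are nested, and every peak counted for FOXO3 or FOXD1 was also counted for the 5 identical rows. Only 21 distinct rows remained among the 25, against 554 among all 579 motifs. For the other 15 motifs no such words were found, and they carried the remaining FOX counts. FOXL1, whose word pair is the most permissive of the set, had the largest count, with 14861 to 16793 CPM (here per 1000000 motif counts) over the samples. Foxo1 had the smallest, with a mean of 121 CPM. By mean CPM, FOXL1 ranked 10 among the 579 motifs and Foxo1 ranked 483. No nucleus had a FOXL1 count of 0, and 0.601% of nuclei had a Foxo1 count of 0.

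FOX motifs took between 7.74% and 8.51% of all motif counts in a sample. The pooled share was 8.51% in CTX replicate 1 and 8.17% in CTX replicate 2. MGE had 8.36% and 7.90%, LGE 8.34% and 7.95%, and CGE 8.26% and 7.74%, each with replicate 1 first. CTX averaged 8.34% (n = 2) and GE 8.09% ± 0.261 (SD, n = 6), a difference of 0.247 percentage points, or 3.05% of the GE level. That is less than the spread between the 2 samples of a region, which was 3.79% of the GE level (pooled SD). The CTX and GE ranges overlapped, since the second CTX sample lay below all 3 GE samples numbered 1. The share of LGE replicate 1 includes the motif matched by a wider rule there, which raises it. No share was computed without that motif. Within a replicate number CTX lay above all 3 GE samples both times, while MGE and LGE changed places. Among samples numbered 1, CTX lay 0.192 points above the GE mean of 8.32% ± 0.0531 (SD, n = 3), and among samples numbered 2 it lay 0.302 points above the GE mean of 7.86% ± 0.110 (SD, n = 3). No test was made, because the share is a score over chosen members.

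**Figure D1:**
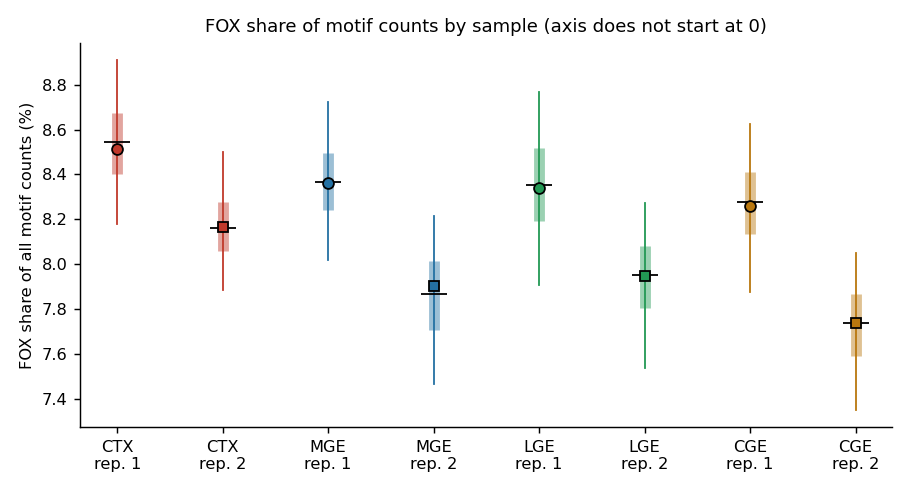
FOX share of all motif counts (%) in each sample; points give the pooled share, black dashes the median over nuclei, thick bars the middle 50% of nuclei and thin lines the 5th to 95th percentiles. Replicate 1 (circles) lies above replicate 2 (squares) in all 4 regions, from 8.26% to 8.51% against 7.74% to 8.17%.

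The larger difference ran with the replicate number. Replicate 1 exceeded replicate 2 in 4 of 4 regions, by 0.346 points in CTX and, among the eminences, by 0.457 points for MGE, 0.390 for LGE and 0.521 for CGE. The LGE difference includes the motif matched by a wider rule in LGE replicate 1, which enlarges it by an amount that was not computed. The means were 8.37% and 7.94%, a difference of 0.428 points. Replicate 1 libraries also had more odd peak counts, 9.54% to 10.4% of entries against 5.17% to 5.85% in replicate 2. The part of that property in the FOX share was not tested.

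Against another denominator the replicate difference did not keep its direction. Per 100 counts in peaks, FOX counts numbered 235 and 229 in CTX. MGE had 232 and 227, LGE 199 and 211, and CGE 219 and 229. Replicate 1 was then above replicate 2 in 2 of 4 regions, with means of 221 and 224. Replicate 1 also had fewer motif counts, over all 579 motifs, per peak count in 4 of 4 regions (26.4 against 28.3 on average). For peaks holding GTAAACA, a measure that uses the same letters in every library, the share of peak counts was 22.5% in replicate 1 and 23.0% in replicate 2 on average. These peaks took 24.9% and 23.3% of peak counts in CTX and 19.0% to 24.0% in GE. LGE replicate 1 was lowest, and its peaks were also the narrowest when weighted by count (2015 bp against 2285 to 2863 bp in the others).

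**Figure D2:**
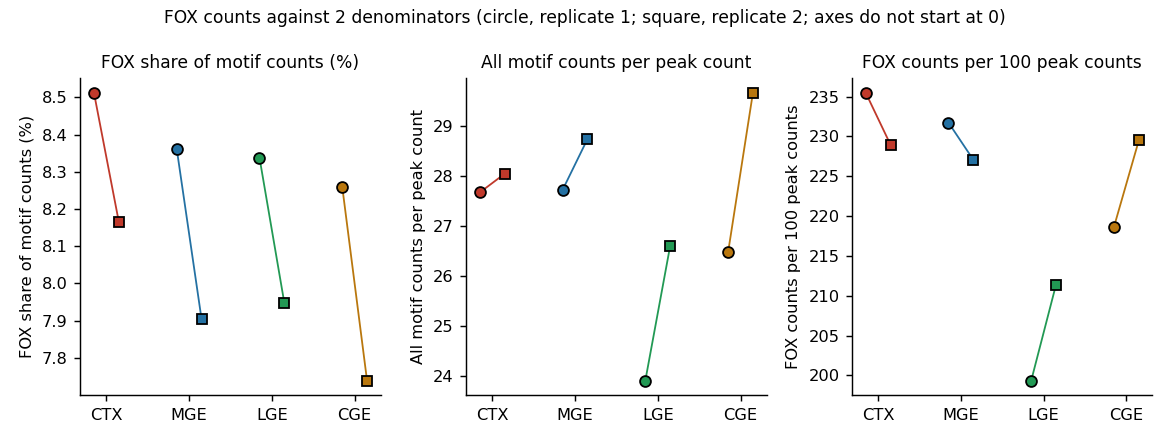
FOX counts as a share of motif counts (%, left), all motif counts per peak count (middle) and FOX counts per 100 peak counts (right) in the 2 samples of each region, joined by a line. The lines all fall on the left (means 8.37% and 7.94%) and all rise in the middle (26.4 and 28.3), and on the right 2 fall and 2 rise.

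Nuclei of a library varied little in their FOX share. Medians ran from 7.74% in CGE replicate 2 to 8.54% in CTX replicate 1, with interquartile ranges of 0.219 to 0.326 points. The SD over nuclei was 0.197 to 0.282 points, against 0.0356 to 0.0468 points from counting a typical nucleus's motif counts alone. Motif counts of a nucleus share peaks, so that counting error is a lower limit. Of nuclei in CTX replicate 1, 94.1% lay above the median of all nuclei (8.20%), compared with 41.3% in CTX replicate 2. In the eminences, with replicate 1 first, the values were 81.2% and 5.97% in MGE, 74.2% and 9.83% in LGE, and 63.9% and 0.839% in CGE. Thinning nuclei to 167000 motif counts left the medians at 7.74% to 8.55%. Nuclei with fewer counts were left out of that step, from 144 in CGE replicate 2 to 1142 in LGE replicate 1. Within libraries, the 25% of nuclei with the fewest counts and the 25% with the most had medians of 7.79% and 7.96% in MGE replicate 2, 7.67% and 7.76% in CGE replicate 2, 7.88% and 7.97% in LGE replicate 2, and 8.57% and 8.51% in CTX replicate 1. They were closer in the other 4, at 8.36% and 8.35% in MGE replicate 1, 8.26% and 8.27% in CGE replicate 1, 8.35% and 8.32% in LGE replicate 1, and 8.16% and 8.16% in CTX replicate 2.

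Each motif was then compared between regions with edgeR's quasi-likelihood test and Benjamini-Hochberg adjustment over all 579 motifs. No FOX motif passed an adjusted p of 0.05 between CTX and GE, where 0% of all motifs did. At an unadjusted p under 0.05 the numbers were 0 of 25 FOX motifs and 126 of 579 motifs (21.8%). DESeq2 called 2 of the 25, Foxq1 and Foxj2, beside 15.5% of all motifs. FOX motifs leaned to CTX, with 17 of 25 having a positive log2 fold and a median of 0.10, beside 248 of 579 and a median of -0.04 over all motifs. The 5 identical rows account for 5 of those 17, and the median of 0.10 is their own log2 fold. FOXL1, FOXO3, Foxj2 and FOXD1, whose words share that core, are also among the 17. The lean is therefore not that of 25 separate motifs, and it was not computed over distinct rows. Foxj2 had 0.13 ± 0.05 (log2 fold ± SE, adjusted p = 0.228), Foxq1 0.16 ± 0.07 (SE, adjusted p = 0.228) and FOXD1 0.20 ± 0.08 (SE, adjusted p = 0.231). Foxq1 had 458 and 428 CPM in CTX and 380 to 418 CPM in GE, and it was the only FOX motif whose CTX samples both lay above every GE sample. That is 1 of 25, against 10.7% of all motifs, and no FOX motif lay below every GE sample, against 15.7% of all motifs.

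Among the eminences no FOX motif was called either, and 0% of all motifs were. The unadjusted p was under 0.05 for 1 of 25 FOX motifs between MGE and LGE (5.01% of all motifs), 0 of 25 between MGE and CGE (2.07%), and 0 of 25 between LGE and CGE (9.84%). The exception was FOXH1, named after a partner of SMAD proteins, with 141 and 174 CPM in MGE, 104 and 120 CPM in LGE, and 119 and 135 CPM in CGE. Its log2 fold of MGE over LGE was 0.47 ± 0.15 (SE, unadjusted p = 0.0202, adjusted p = 0.740), and of MGE over CGE 0.30 ± 0.15 (SE, adjusted p = 0.962). FOXP1 had the smallest p between MGE and CGE, its log2 fold being 0.24 ± 0.11 (SE, adjusted p = 0.962), and FOXK2 had -0.15 ± 0.09 (SE, adjusted p = 0.962). Between LGE and CGE the smallest p-values belonged to Foxd3, its log2 fold being 0.59 ± 0.25 (SE, adjusted p = 0.457), Foxj3, with 0.38 ± 0.18 (SE, adjusted p = 0.479), and Foxo1, with -1.10 ± 0.54 (SE, adjusted p = 0.494). Between MGE and LGE, Foxd3 had a log2 difference of -0.45 ± 0.25 (SE, adjusted p = 0.740), which was 0.0086 without LGE replicate 1.

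LGE replicate 1 stood apart for several motifs, and other libraries for others. FOXP2 had 933 CPM there against 480 to 546 CPM, Foxd3 1448 against 724 to 915 CPM, and FOXC1 925 against 331 to 581 CPM. As described above, 1 motif was matched by a wider rule in that library. No words were found for FOXP2, Foxd3 or FOXC1, nor for FOXC2 and Foxo1 below. Whether their matching differed between libraries was not tested, so these levels need not be differences in accessibility. Without LGE replicate 2, so that LGE replicate 1 alone stood for LGE and was assumed to vary like the other groups, 2 FOX motifs, FOXP2 among them, were called in both contrasts that involve LGE, beside 0.864% of all motifs between MGE and LGE and 1.04% between LGE and CGE.

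Similar steps crossed the regions for FOXC2 and Foxo1. FOXC2 had 993 CPM in CTX replicate 1 and 1055 CPM in CGE replicate 2, and 2114 to 2719 CPM in the other 6. Foxo1 had 237 CPM in CTX replicate 1. It had 145 to 150 CPM in CGE replicate 1, MGE replicate 2 and CGE replicate 2, and 66.3 to 77.1 CPM in the other 4. The replicates of CTX and CGE thus fell on different levels for FOXC2, and those of CTX and MGE for Foxo1. The log2 fold of Foxo1 between CTX and GE was 0.61 ± 0.42 (SE, adjusted p = 0.470). The 5 identical rows, by contrast, ranged from 7958 to 8996 CPM, 1.13 times between the lowest and highest sample.

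**Figure D3:**
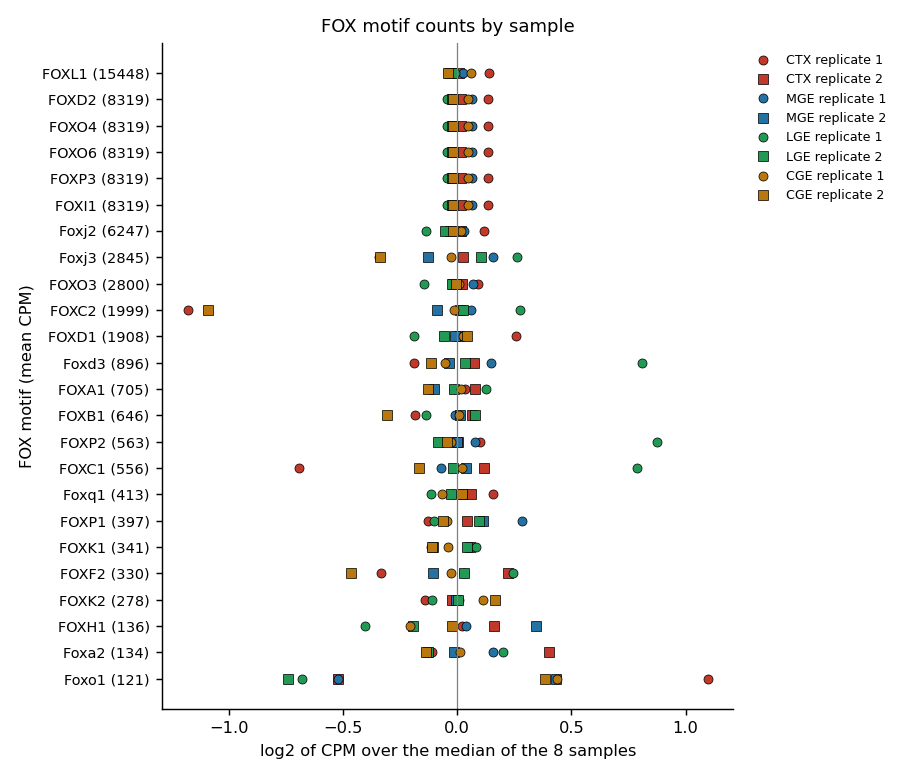
Log2 of the CPM of 24 FOX motifs over each motif's median of the 8 samples, motifs ordered by mean CPM (in brackets), 1 point per sample. The most frequent motifs lie close to 0, while Foxd3, FOXP2 and FOXC1 are high in LGE replicate 1 and FOXC2 is low in CTX replicate 1 and CGE replicate 2.

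None of the remaining named motifs was called between CTX and GE in edgeR. FOXP1 had 355 and 401 CPM in CTX and 362 to 473 CPM in GE, its log2 fold being -0.06 ± 0.09 (SE, adjusted p = 0.717). FOXO3 had 2978 and 2841 CPM in CTX and 2534 to 2933 CPM in GE, its log2 fold being 0.10 ± 0.06 (SE, adjusted p = 0.403). FOXL1 had 0.10 ± 0.05 (log2 fold ± SE, adjusted p = 0.332). FOXC1 had -0.33 ± 0.29 (SE, adjusted p = 0.565), FOXP2 -0.08 ± 0.24 (SE, adjusted p = 0.863) and FOXH1 0.19 ± 0.12 (SE, adjusted p = 0.447). The log2 folds of the 25 ran from -0.33 to 0.61. By replicate number, 3 of 25 FOX motifs, FOXL1 and FOXP2 among them, were higher in replicate 1 in all 4 regions, against 5.87% of all motifs. FOXH1 was lower in all 4, which is 1 of 25 against 4.84%.

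Other families set by motif name showed the scale of the FOX difference. The 99 homeodomain motifs took 27.0% of motif counts in CTX and 24.1% ± 0.499 (SD, n = 6) in GE. The 13 KLF or SP motifs took 6.96% and 7.86% ± 0.461, the 15 SOX motifs 3.53% and 3.41% ± 0.167, the 24 ETS motifs 2.64% and 2.85% ± 0.130, and the 16 POU motifs 1.24% and 1.33% ± 0.125 (all SD, n = 6 in GE). By replicate number, KLF or SP motifs ran opposite to FOX, at 7.31% in replicate 1 and 7.95% in replicate 2, lower in replicate 1 in 4 of 4 regions. A larger share of one family lowers the shares of the rest, so these values are not independent of the FOX share.

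Since each library has its own peaks, the forkhead core GTAAACA was also followed on a common set, namely the 68274 regions where every library had a peak once overlapping peaks were merged. The core occurred in the central 500 bp of 4500 of them (6.59%) and anywhere in 14704 (21.5%). Core regions were poorer in GC (median 46.4% against 49.6% in regions without) and more often over 2000 bp from a transcription start site (85.7% against 75.1%). Regions with a central core held 5.42% and 5.17% of counts in CTX. MGE had 4.83% and 5.06%, LGE 4.98% and 4.87%, and CGE 5.18% and 4.97%. CTX replicate 1 was highest, while CTX replicate 2 lay just below CGE replicate 1. With the core anywhere, the shares were 30.98% and 30.8% in CTX and 29.9% to 30.6% in GE, with no overlap.

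Between CTX and GE, 516 of the 4500 core regions (11.5%) were called with more counts in CTX and 274 (6.09%) with fewer, beside 9.49% and 5.39% of all 68274 regions. The median log2 fold was 0.10 for core regions and 0.03 for all. When the fit allowed for how many bases of a region each sample's peaks covered, the medians were -0.02 and -0.06, and the calls 275 higher and 198 lower (6.11% and 4.40% of core regions, beside 5.12% and 4.05% of all). Without CTX replicate 1 the medians were 0.016 and -0.00057, and 654 core regions were higher by call and 591 lower (14.53% and 13.1%, beside 12.7% and 11.5% of all), so that 52.5% of the called core regions were higher, compared with 65.3% when all samples were used. Among regions over 2000 bp from a start site the gap was smaller. There 12.8% of 3858 core regions were higher by call and 6.92% lower, against 11.7% and 6.40% of all 51733. Regions were also split into 3 classes of GC content. In the lowest, the distal core regions were called higher in 13.9% and distal regions without a core in 13.0%. In the middle class the values were 12.46% and 11.5%, and in the highest 8.91% and 9.26%. The shares of core and other regions thus lay close together, and no test of that difference was made. Counts of called core regions moved with the libraries used. Those of all regions moved alike, so the moves are not particular to core regions. With 1 sample left out, the median log2 fold of core regions was lowest without CTX replicate 1 (0.016) and highest without CGE replicate 1 (0.133). In these 2 fits the median of all regions was -0.00057 and 0.047. Over 12 settings, the one reported included, the share of core regions called higher was 1.14 to 1.24 times that of all regions, and the share called lower 1.04 to 1.23 times. Regions with more cores anywhere were called higher more often, from 8.57% with none to 12.4% with 1, 13.9% with 2 and 17.7% with 3 or more. In the same order, 5.30%, 5.59%, 6.36% and 6.20% were called lower, and the median widths were 1409, 1963, 2681.5 and 4627 bp. The part of width in that order was not tested.

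**Figure D4:**
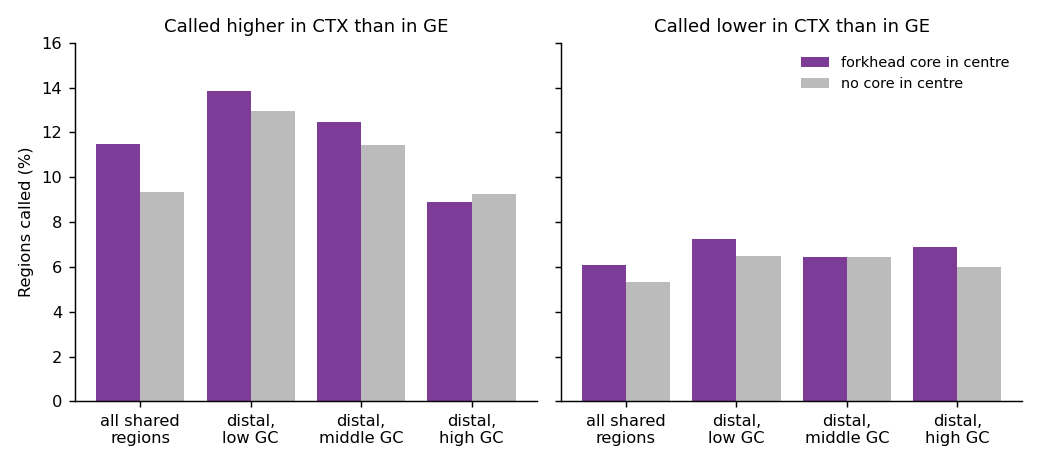
Percent of regions called higher (left) or lower (right) in CTX than in GE, for regions with GTAAACA in their central 500 bp and regions without it, over all shared regions and over distal regions in 3 classes of GC content. In these classes, from low to high GC, 13.9%, 12.46% and 8.91% of core regions and 13.0%, 11.5% and 9.26% of the others were called higher.

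Among the eminences, 12 core regions were called higher and 20 lower in MGE than in LGE. These were 0.267% and 0.444% of the 4500 core regions, beside 0.207% and 0.488% of all 68274 regions. In MGE against CGE the numbers were 6 and 10 (0.133% and 0.222% of core regions, beside 0.0498% and 0.275% of all), and between LGE and CGE 0 and 0 (beside 0% and 0% of all), where DESeq2 called 31 (0.689% of core regions, beside 0.611% of all). These calls came and went with the setting. Without either CTX sample 542 and 531 core regions were called between MGE and LGE and 478 and 478 between MGE and CGE. These were 12.04% and 11.8% of core regions, beside 10.3% and 10.1% of all, and for MGE and CGE 10.6% and 10.6%, beside 9.06% and 8.87%. Without any 1 of the 6 GE samples none was, and calls over all regions vanished as well.

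Some called regions far from start sites held several cores and had CPM values (per 1000000 counts in shared regions) that did not overlap between the groups. The 2 with the largest fold in each direction were chosen for display, so their folds are extreme by choice. Regions of 1 chromosome were left out of that choice. For the 6 regions whose closest 2 cores could be shown in 1 stretch, that stretch is printed below from GRCm38, on the reference forward strand. Capitals mark the core GTAAACA or its reverse complement, and the stretches show how the cores are spaced in regions that differ most.
Chn1 region, chr2:73778453-73778592: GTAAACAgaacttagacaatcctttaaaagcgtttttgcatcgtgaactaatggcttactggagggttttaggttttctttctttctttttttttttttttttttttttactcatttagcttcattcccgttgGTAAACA
Maml3 region, chr3:51732858-51733138: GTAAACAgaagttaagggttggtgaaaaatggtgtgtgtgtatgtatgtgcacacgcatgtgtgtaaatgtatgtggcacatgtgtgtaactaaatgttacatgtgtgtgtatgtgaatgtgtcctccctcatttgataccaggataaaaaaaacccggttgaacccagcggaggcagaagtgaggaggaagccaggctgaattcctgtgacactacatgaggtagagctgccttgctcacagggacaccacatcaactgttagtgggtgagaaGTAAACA
Adgrd1 region, chr5:129283821-129283940: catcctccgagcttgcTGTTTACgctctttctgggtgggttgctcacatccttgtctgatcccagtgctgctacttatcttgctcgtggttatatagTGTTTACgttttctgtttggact
Pou3f3 region, chr1:42355509-42355628: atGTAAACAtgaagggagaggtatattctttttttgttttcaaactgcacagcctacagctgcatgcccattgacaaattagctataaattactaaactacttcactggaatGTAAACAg
Tmem38b region, chr4:54029719-54029838: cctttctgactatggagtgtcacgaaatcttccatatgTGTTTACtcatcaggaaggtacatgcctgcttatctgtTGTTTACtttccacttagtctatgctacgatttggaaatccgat
Fggy region, chr4:95519789-95519866: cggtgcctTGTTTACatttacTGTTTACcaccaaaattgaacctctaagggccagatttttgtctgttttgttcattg

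The region nearest Chn1 (chr2:73777876-73783133), between protein-coding genes and 2531 bp from the closest start site, had 41.1 and 9.26 CPM in CTX and 0.311 to 4.53 CPM in GE. Its 2 cores start 133 bp apart, and its log2 fold was 4.35 ± 0.59 (SE, adjusted p = 0.00581). A second region, overlapping an exon of Tbc1d16 (chr11:119208812-119212307), had 42.2 and 8.11 CPM in CTX and 0.323 to 1.47 CPM in GE, its log2 fold being 4.89 ± 0.58 (SE, adjusted p = 0.00410). In both, CTX replicate 1 was far above CTX replicate 2, which was older and also differed in Neurod2 and Wnt8b. In the other direction, a region in an intron of Maml3 (chr3:51731861-51733297), which encodes a Notch coactivator, had 0.130 and 0.115 CPM in CTX and 1.55 to 5.85 CPM in GE. Its log2 fold was -4.66 ± 0.36 (SE, adjusted p = 0.00227). The region nearest Adgrd1 (chr5:129281170-129284001), 184414 bp from the closest start site, had 0.102 and 0.675 CPM in CTX and 6.80 to 10.8 CPM in GE, its log2 fold being -4.37 ± 0.75 (SE, adjusted p = 0.0117). Its closest cores start 81 bp apart.

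For the eminences, a region in an intron of Zswim5 (chr4:116910140-116912570) was highest in MGE in both contrasts. It had 34.6 and 41.3 CPM there, 3.33 and 4.57 in LGE, 6.13 and 6.22 in CGE, and 2.31 and 1.45 in CTX. The region nearest Pou3f3 (chr1:42353646-42355764), 340004 bp from the closest start site and with 4 cores, had 8.41 and 15.3 CPM in MGE and 1.62 and 1.88 CPM in LGE. The one nearest Tmem38b (chr4:54027411-54030716) had 50.9 and 61.3 CPM in MGE against 18.6 and 18.6 CPM in CGE. Its closest cores start 38 bp apart. The one nearest Fggy (chr4:95519789-95520901), whose cores start 13 bp apart, had 0.939 and 1.10 CPM in MGE against 7.58 and 8.85 CPM in CGE. Regions in an intron of Slc35f2 (chr9:53793513-53795788) and overlapping an exon of Dst (chr1:34296705-34301099) were lower in MGE than in LGE, and a region overlapping an exon of Mtcl1 (chr17:66356958-66359592) was lower in MGE than in CGE. All these folds had adjusted p-values of 0.0254 to 0.0471 in edgeR. With the replicate number as a block, 0 of the 4500 regions with a central core were called in either MGE contrast. Among all 68274 regions, 0 were called higher and 9 lower in MGE than in LGE, and 0 and 3 in MGE than in CGE. The regions named here as higher in MGE thus lost their call.

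The genes that encode forkhead proteins were described by the counts in peaks over the gene body and 2000 bp upstream. Of 44 Fox genes, 42 passed the filter on low counts, and Foxi1 and Foxr2 did not. Between CTX and GE 2 of the 42 were called, both higher in CTX, beside 3.65% of all 17357 genes called higher, and none was called lower, beside 0.858%. Without MGE replicate 1, CGE replicate 1 or CGE replicate 2 the number was 0 of 43, beside 399 of 17815, 411 of 17812 and 230 of 17759 genes in all. Without CTX replicate 2 it was 3 of 42, beside 1834 of 17662. Without LGE replicate 1 or LGE replicate 2 it was 1 of 43, beside 342 of 17818 and 352 of 17807. DESeq2 called 8 of 42, beside 15% of all genes. At an unadjusted p under 0.05 there were 7 of 42 Fox genes, beside 18.4% of all genes. The median log2 fold of the 42 was 0.00.

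Foxo6, a FOXO member expressed in the brain (chr4:120267079-120287349, minus strand), had 347 and 214 CPM in CTX. The MGE values were 177 and 159 CPM, those of LGE 124 and 113, and those of CGE 120 and 118. Both CTX samples lay above all GE samples. Its log2 fold was 1.19 ± 0.19 (SE, adjusted p = 0.0204). The length of its peaks ran in parallel, with 29557 and 16011 bp in CTX and 10258 to 13560 bp in GE, so that per covered kilobase the values overlapped, at 11.7 and 13.4 CPM in CTX and 10.0 to 13.4 CPM in GE. In peaks within 1000 bp of a start site it had 340 and 245 CPM in CTX and 83.7 to 120 CPM in GE. Foxb2 (chr19:16872319-16873805, minus strand) had 62.3 and 83.3 CPM in CTX and 41.5 to 58.8 CPM in GE, its log2 fold being 0.66 ± 0.13 (SE, adjusted p = 0.0330). Per covered kilobase it had 5.93 and 7.76 CPM in CTX and 5.19 to 7.26 CPM in GE. The adjusted p of Foxb2 passed the threshold without CTX replicate 1 and missed it without any other 1 sample (0.0527 to 0.0992) and with the replicate number as a block (0.0538).

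Of the FOXP genes, regulators of neuronal differentiation, Foxp1, Foxp2 and Foxp4 had higher counts in both CTX samples than in any GE sample. The share of all genes with that pattern, which Foxo6 and Foxb2 also showed, was not counted. It therefore cannot be said whether the pattern is unusual. Foxp1 had 641 and 569 CPM in CTX and 376 to 489 CPM in GE (log2 fold 0.56 ± 0.13 SE, adjusted p = 0.0638). Foxp2 had 384 and 420 CPM in CTX and 198 to 340 CPM in GE (log2 fold 0.57 ± 0.16 SE, adjusted p = 0.0986). Foxp4 had 317 and 263 CPM in CTX and 181 to 234 CPM in GE (log2 fold 0.56 ± 0.14 SE, adjusted p = 0.0722). None of the 3 passed the threshold in edgeR with all samples. DESeq2 called all 3, and edgeR called Foxp1 and Foxp4 without CTX replicate 2 and Foxp2 without MGE replicate 2. Per covered kilobase the groups overlapped for each. Foxp1 then had 5.93 and 6.88 CPM in CTX and 4.58 to 9.62 CPM in GE, Foxp2 7.48 and 9.19 against 6.03 to 11.0, and Foxp4 8.36 and 10.2 against 7.37 to 10.4. In peaks within 1000 bp of a start site, Foxp2 kept the CTX samples apart (284 and 282 CPM against 144 to 217 CPM in GE), while Foxp1 (231 and 202 against 177 to 222) and Foxp4 (117 and 98.5 against 78.4 to 115) did not. Foxp3, a gene of regulatory T cells, had 46.5 and 45.2 CPM in CTX and 48.6 to 55.8 CPM in GE (log2 fold -0.08 ± 0.10 SE, adjusted p = 0.760). Reads of Foxp1 cannot be separated from those of Gm20696, which it overlaps, nor those of Foxp3 from Ccdc22 and Ppp1r3f.

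Foxa2, a floor plate gene, was highest in MGE, with 71.3 and 62.4 CPM against 27.1 to 45.2 CPM in LGE and CGE and 17.6 and 29.4 CPM in CTX. Per covered kilobase MGE was not highest, with 5.84 and 3.75 CPM there, 6.04 and 4.99 in LGE, 5.01 and 3.18 in CGE, and 3.62 and 4.79 in CTX. Its log2 fold of MGE over LGE was 1.32 ± 0.29 (SE, adjusted p = 0.349), and it was not called by edgeR in any contrast, although DESeq2 called it in 3. Its peaks covered 12209 and 16640 bp in MGE and 4523 to 14233 bp in the other 2 eminences. In edgeR no Fox gene was called among the eminences, where 0.0691% of all genes were called higher and 0.0173% lower in MGE than in LGE, 0.0576% and 0.0288% in MGE than in CGE, and 0% between LGE and CGE. DESeq2 called Foxa2 and Foxl2 between MGE and LGE (2.71% of all genes) and Foxa2 between MGE and CGE (2.52%), and 0 Fox genes between LGE and CGE (0.559%). The number at an unadjusted p under 0.05 was 6 of 42 between MGE and LGE (6% of all genes), 4 between MGE and CGE (6.6%) and 1 between LGE and CGE (1.99%). The median log2 fold of the 42 genes was 0.23 between MGE and LGE and 0.20 between MGE and CGE, while that of all genes was 0.00 in each. Without MGE replicate 1 these medians were 0.13 and 0.079. Without LGE replicate 2 the first was 0.36, and without MGE replicate 2 the second was 0.32.

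The rest of the named genes did not pass between CTX and GE. Foxo1 and Foxo3, insulin-signalling effectors, had log2 folds of 0.06 ± 0.11 and -0.02 ± 0.12 (SE). Foxk1 and Foxk2 had 0.12 ± 0.13 and -0.34 ± 0.17, Foxj1, the cilium gene, 0.40 ± 0.27, Foxj3 -0.07 ± 0.10, and Foxm1, a cell-cycle regulator, -0.22 ± 0.14. Foxb1 had -0.17 ± 0.66, Foxd1 -0.20 ± 0.20, Foxd3 -0.21 ± 0.28, Foxc1 -0.09 ± 0.27, Foxf2 0.16 ± 0.14, Foxq1 0.03 ± 0.13 and Foxh1 -0.10 ± 0.12. Their adjusted p-values lay between 0.355 and 0.968. Of these genes, Foxk1 (Ap5z1), Foxj1 (Rnf157), Foxj3 (Frg2f1), Foxm1 (Rhno1, Tex52 and Gm44596), Foxq1 (A530084C06Rik) and Foxh1 (Ppp1r16a) overlap the genes in parentheses, and their reads cannot be told apart. Foxp1 (highest sample 641 CPM), Foxn3 (612) and Foxp2 (420) carried the most counts. These sums grow with gene length and do not rank the genes by activity. The core occurred in the RefSeq promoter (250 bp before to 50 bp after the start) of 1 of 35 Fox genes found there, Foxa1, against 3.65% of all 32851 promoters.

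**Figure D5:**
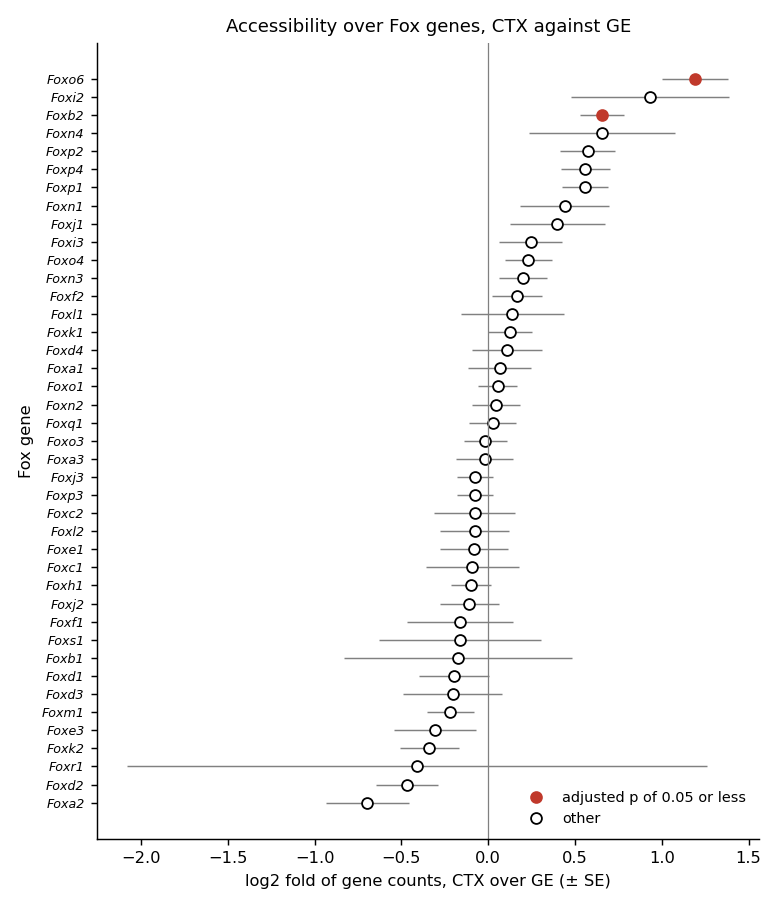
Log2 fold of counts over 41 of the tested Fox genes, CTX over GE, with the standard error; filled points have an adjusted p of 0.05 or less. Foxo6 (1.19) and Foxb2 (0.66) are the filled points, and Foxa2 (-0.70) lies at the lower end.

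Nuclei were also grouped by clustering on the shared regions, and FOX shares were compared inside libraries. Of 12 clusters, 5 were named from their markers and hold 52.0% of nuclei, and the names depend on the clustering, since 76.1% of nuclei kept their class with another random seed, under which no cluster was named progenitor-like. In the 6 GE libraries, GABAergic-like nuclei had a lower FOX share than the rest of their library. With another random seed this did not hold in CGE replicate 1, where the class had 8.261% and the whole library 8.260%. The difference, in percentage points with replicate 1 first, was -0.121 and -0.251 in MGE, -0.0608 and -0.105 in LGE, and -0.000788 and -0.0225 in CGE. The 135 GABAergic-like nuclei of CTX replicate 1 had 8.21%, against 8.51% in the rest of that library. Progenitor-like nuclei had a higher share than the rest in the 5 libraries with at least 50 of them, by 0.122 to 0.197 points. Glutamatergic-like nuclei made up 69.4% of CTX replicate 1 (8.53%) and 0% of CTX replicate 2, so the cortical samples could not be compared within that class. Unnamed clusters of 3572 and 978 nuclei came for 98.6% and 98.4% from CTX replicate 2, with Wnt8b among their top genes. The CTX samples thus differed in the nuclei they held as well as in age. Motif counts are sums of the counts that were clustered, so these are descriptions without a test.

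Over several Fox genes the endothelial-like nuclei had other levels than the rest. These 675 nuclei, 48.9% of them from CTX replicate 2, had 89.9 CPM over Foxf2, 122 CPM over Foxc1 and 61.2 CPM over Foxq1, genes of vascular and perivascular cells. The other 3 named classes had 20.3 to 37.5, 33.0 to 66.0 and 19.4 to 24.8 CPM over the same genes. Glutamatergic-like nuclei had 341 CPM over Foxo6, against 83.2 to 156 CPM in the other named classes and 171 CPM in unnamed nuclei, but 99.97% of them came from CTX replicate 1, a library with 347 CPM over that gene. Their FOX share could be read in 3 libraries for the endothelial-like class, 8.42% in both MGE replicate 1 and LGE replicate 1 and 8.41% in CTX replicate 2.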

How the data were processed

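The deposited values are counts made by the authors: per library, counts of each nucleus in called peaks and in peaks holding each motif. The submitters' processing notes name Cell Ranger ATAC 1.2.0 and GRCm38 (mm10). How motifs were matched to peaks is not stated in the sources at hand. FOX members and all gene lists were chosen with earlier results of these data known.

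Because nuclei are no replicates, each library was reduced to 1 column of summed counts. Motifs (579), regions with a peak in all 8 samples, and protein-coding genes (peaks over the body and 2000 bp upstream) were each fitted with edgeR 4.0.16 in R 4.3.3 (quasi-likelihood test, TMM, filterByExpr), with 4 groups of 2 samples. A feature was called where its p, adjusted by Benjamini-Hochberg across the whole table, was at most 0.05. CTX was compared with the average of the 3 eminences, and the eminences in pairs. DESeq2 1.42.0 was an alternative. Nuclei were clustered with leidenalg 0.10.2, and a class name needed 6 markers raised 1.5-fold, a rule set after seeing the clusters; no doublet caller was run. On simulated data, 94% of 50 motifs changed by 1 on the log2 scale were recovered, 81% of 200 regions and 87.5% of 200 genes changed by 3 (CTX against GE). Of the unchanged features, 5 motifs, 14 regions and 16 genes were called too. Changes as small as most FOX folds were not simulated. Named motifs were the 3 with the smallest p per contrast, the largest, the smallest and 6 chosen by name; named genes were 18 Fox genes chosen by name and any other called (1 further name is not reported here); the regions' rule is given with them. Foxn3, Foxp3, Foxl2 and the genes compared between nuclear classes were chosen after their values were seen. Sequences were read from GRCm38, and promoters from RefSeq.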

Additional observations from a re-analysis of the deposited data

Results flagged for a closer look

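Among the 6 GE samples, 45 sets of values (FOX motifs and named Fox genes) were checked for a single sample far from the others, a rule that chance meets in about 1 set in 20, and 6 sets met it. In LGE replicate 1 these were the motifs FOXP2 (933 CPM, the other 5 at 480 to 538), Foxd3 (1448, others 761 to 915) and FOXC1 (925, others 477 to 550). In CGE replicate 2 it was the motif FOXC2, at 1055 CPM, with the others at 2114 to 2719 CPM. No words were found for any of these motifs, and whether they were matched alike in every library was not tested. In MGE replicate 1 the gene Foxp2 had 198 CPM, with the others at 292 to 340 CPM, and the gene Foxo1 had 63.1 CPM, with the others at 51.4 to 53.2 CPM.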

How the results depend on the processing

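The FOX share of CTX over GE, 3.05%, moved to 7.89% when peaks holding GTAAACA were taken as a percent of peak counts, to 5.74% with counts in peaks as denominator and to 0.292% with motifs weighing equally, and ranged from 0.914% to 5.19% when each sample was left out. The excess of replicate 1 over replicate 2, 5.40%, became -1.31% with peak counts as denominator and -2.07% for GTAAACA in a sample's own peaks. In shared regions it was 0.0438% with the core anywhere and 1.78% in central windows. These shares with GTAAACA were alternatives chosen after seeing the data. FOX motifs called, 0 in each contrast, became 2 in CTX against GE with DESeq2, and ranged from 0 to 2 in the contrasts of LGE with MGE and with CGE when a sample was left out.

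Core regions called in CTX against GE, 790 of 4500 (17.6%, beside 14.9% of all regions), became 473 with an offset for covered length (10.5%, beside 9.17%). They were 2727 of 14704 with the core anywhere (18.5%) and 1748 of 10240 with GTAAACA or ATAAACA (17.1%), and ranged from 339 to 1356 when a sample was left out. In MGE against LGE, 32 (0.711%, beside 0.694%) became 384 with DESeq2 (8.53%, beside 7.40%), 573 with GE samples only (12.7%, beside 10.6%), 17 with the offset (0.378%, beside 0.422%), 135 with the core anywhere (0.918%) and 82 with either word (0.801%), ranging from 0 to 542. In MGE against CGE, 16 (0.356%, beside 0.325%) became 340 (7.56%, beside 6.61%), 502 (11.2%, beside 9.40%), 4 (0.0889%, beside 0.0659%), 69 (0.469%) and 38 (0.371%) in that order, ranging from 0 to 478. In LGE against CGE, 0 became 31 with DESeq2 (0.689%, beside 0.611%). Fox genes called in CTX against GE, 2, became 8 with DESeq2 and ranged from 0 to 3. DESeq2 called 2 in MGE against LGE and 1 in MGE against CGE.

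The replicate numbers were not taken as pairs, because the correlation of same-numbered deviations was not over 0.1 for every pair of regions (-0.672 to 0.228 for FOX motifs, -0.0283 to 0.486 for shared regions). It was over 0.1 for some, among them 0.486 for CGE with LGE, 0.276 for CTX with LGE and 0.188 for CGE with CTX over shared regions. With the replicate block, core regions called were 734 in CTX against GE (16.3%, beside 13.7% of all regions) and 0 in both MGE contrasts, where 9 (against LGE) and 3 (against CGE) of all 68274 regions were called. Of the Fox genes 1 of 42 was called, Foxo6, beside 599 of 17357 genes in all.

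Counting only peaks near start sites reversed the CTX against GE log2 fold of the genes Foxo1 (-0.048), Foxk1 (-0.22), Foxj1 (-0.13) and Foxc1 (0.22). Leaving out a sample reversed others, with ranges for the motifs FOXC1 (-0.79 to 0.026), FOXP1 (-0.16 to 0.027), FOXP2 (-0.22 to 0.11), Foxo1 (-0.41 to 1.203) and Foxd3 (-0.78 to 0.0086 in MGE against LGE). For genes they were Foxo1 (-0.0063 to 0.11), Foxo3 (-0.19 to 0.13), Foxj3 (-0.17 to 0.017), Foxb1 (-0.98 to 0.34), Foxd1 (-0.52 to 0.066), Foxd3 (-0.39 to 0.024), Foxc1 (-0.73 to 0.35) and Foxq1 (-0.082 to 0.13). None of these was called, and the cause was not tested. With 2 samples a group, a missed call does not show equal levels.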
